A study of Mus musculus with 2 samples.

Results

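The distal miRNA cluster of the imprinted Dlk1-Dio3 domain, which runs from Mir379 to Mir410 on mouse chromosome 12, was measured in the embryonic face. Its members were taken by symbol from a list of 36 miRNA genes between positions 109709060 and 109747960 (mm10), a rule on position and name. The list was set with earlier results of these data known. For 4 members the rule takes the strand opposite to the annotated row, where their reads lie. Of the 36, 35 had a row among the 1973 miRNA genes of the count tables, and 33 were detected, which here means at least 10 counts in each library. Mir376b had no row under its identifier and was not analysed here. The series holds 1 group of 2 microRNA sequencing libraries from healthy mouse embryos of the B6NCrl strain at 10.5 days, made from total RNA with inserts below 30 nt. Replicate 1 is a pool of facial prominences from 69 embryos and replicate 2 a pool from 51, each of both sexes, and no embryo is measured singly. With no second tissue, stage or treatment, the comparisons are between members, between the cluster and other miRNA genes, and between the pools. The gene totals were 2853511 counts in replicate 1 and 3517226 in replicate 2, and levels are counts per 1000000 counts of that total (CPM), as mean ± SD over the libraries (n = 2).

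A miRNA is cut from a hairpin in a longer transcript, and either arm of the hairpin, the 5p or the 3p, can be loaded into Argonaute. Bases 2 to 8 of the mature miRNA, the seed, pair with target mRNAs and lower their translation or stability. The Mir379 to Mir410 hairpins belong to the maternally expressed RNAs of the Dlk1-Dio3 domain, which also include Meg3, Rian and Mirg, while the paternal chromosome expresses the protein-coding genes Dlk1, Rtl1 and Dio3. The cluster is known from placental mammals and is best studied in brain and placenta. The facial prominences are outgrowths of neural crest mesenchyme covered by epithelium, from which the face and jaws form.

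All 36 members were matched by name to RefSeq sequences on GRCm38.p6, the same build as mm10, with 68 mature sequences of 19 to 25 nt. The hairpins of Mir379, Mir411 and Mir409, which are among the 5 highest members, are shown first, on the plus strand and 5′ to 3′, with the mature arms in capitals. Mir379 opens the cluster (chr12:109709060-109709125), Mir411 is the next hairpin (chr12:109710175-109710256) and Mir409 lies near the far end (chr12:109743158-109743236).
Mir379: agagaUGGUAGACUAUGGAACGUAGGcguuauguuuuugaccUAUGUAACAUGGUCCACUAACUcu
Mir411: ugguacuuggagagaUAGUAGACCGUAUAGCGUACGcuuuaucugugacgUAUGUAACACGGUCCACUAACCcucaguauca
Mir409: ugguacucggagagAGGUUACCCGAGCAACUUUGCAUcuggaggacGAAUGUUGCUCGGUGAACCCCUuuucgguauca
The deposited counts are per hairpin and do not separate the arms, so every level below belongs to a hairpin and not to a mature sequence.

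The 68 mature sequences carried 63 different seeds, and 5 seeds were shared by members, always by 2. For 4 members, Mir487b, Mir376c, Mir539 and Mir485, RefSeq held 1 mature sequence, and the other arm had none. Seeds of those missing arms could not be counted, so more seeds may exist and more may be shared. The shared seeds group 9 of the members by their predicted pairing bases, and the sequences of all but the fifth are shown. In the sequences that follow the capitals mark the seed.
miR-379-3p: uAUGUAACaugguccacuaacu
miR-411-3p: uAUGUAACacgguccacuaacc
miR-379-5p: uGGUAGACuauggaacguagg
miR-1193-5p: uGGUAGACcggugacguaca
miR-758-5p: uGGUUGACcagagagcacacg
miR-1197-5p: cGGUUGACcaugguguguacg
miR-410-5p: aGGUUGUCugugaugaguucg
miR-494-5p: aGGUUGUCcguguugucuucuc
The fifth shared seed was that of miR-376b-5p and miR-376c-5p, and Mir376b had no row, so this pair has no full sum. Among the pairs with both hairpins measured, the hairpins that carry the seed of miR-379-3p and miR-411-3p had the highest sum, with 12301 and 13522 CPM. The seed of miR-379-5p and miR-1193-5p stood on hairpins with 5836 ± 247 CPM, and these sums share Mir379. The seeds of miR-410-5p with miR-494-5p (1115 ± 80.2 CPM) and miR-758-5p with miR-1197-5p (244.7 ± 9.21 CPM) stood on lower hairpins. miR-411-5p, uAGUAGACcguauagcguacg, differs from miR-379-5p in its seed although the 3p seeds of both hairpins are the same.

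Of the 63 seeds, 11 also occurred in 15 miRNA genes that are not members, 13 of which had a row. The RefSeq set searched leaves out a chromosome that holds no member. Of these, Mir1983, which shares the miR-412-3p seed, had 5570 and 7191 CPM. Mir370, a proximal miRNA of the same domain with the miR-1193-3p seed, had 829.5 and 847.8 CPM. Mir362 with the miR-329-3p seed had 165.1 and 124.5 CPM, beside 200.1 and 167.2 CPM for Mir329 itself. Mir672 with the miR-377-5p seed had 32.9 and 36.7 CPM, and the other 9 genes had 0 counts in both libraries. Reads that map to several places are not counted, so 0 counts of numbered copies such as Mir344d-1 may not mean absence.

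A stretch of 7 bases, GGUNNAC with N for any base, recurred among the members. It was chosen after the sequences were seen and was searched in the mature RNA as written, on that strand alone. It can overlap a seed, as it does in miR-379-5p. It was found in 20 of 68 mature sequences of members (29.4%) and in 15 of 1611 other mouse mature sequences of the same RefSeq set (0.931%). Among members it was found in 12 sequences of the 3p arm and 8 of the 5p arm, over 14 hairpins, 6 of which had it on both arms. In 9 of the 20 sequences it overlapped the seed, and in 11 it lay beyond it. The capitals below mark the stretch, mainly in sequences of the latter kind.
miR-379-3p: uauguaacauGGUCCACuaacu
miR-411-3p: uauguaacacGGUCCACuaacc
miR-380-3p: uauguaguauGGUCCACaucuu
miR-323-3p: cacauuacacGGUCGACcucu
miR-154-3p: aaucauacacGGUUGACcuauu
miR-543-3p: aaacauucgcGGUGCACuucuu
miR-495-3p: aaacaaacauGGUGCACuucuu
miR-409-3p: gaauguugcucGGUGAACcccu
miR-134-5p: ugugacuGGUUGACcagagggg
Among these 9 the stretch reaches the seed in miR-134-5p alone. By contrast, miR-379-5p, miR-1193-5p, miR-758-5p and miR-1197-5p, shown above with their seeds in capitals, hold it at the very bases of the seed. The 14 detected hairpins with it had a median of 1567 CPM (27.6 to 9502), against 356.6 CPM (47.4 to 9738) for the 19 detected hairpins without it, and the ranges overlap over nearly their whole extent. The hairpins without it include Mir487b, Mir376c, Mir539 and Mir485, for which 1 arm alone could be searched. The match is a description of letters and says nothing of what binds them.

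The hairpins of members were also compared over their whole length. Identity is the matched bases of a gapped global alignment over the length of the shorter hairpin. A short hairpin can therefore score high against a long one through gaps. No hairpins outside the cluster were compared, so the values have no background. Over the 561 pairs of 34 members with a hairpin sequence, the median identity was 63.9%, and 45 pairs reached 75%. Mir376c and Mir376b were the closest, at 86.6%. Mir380 and Mir1197 followed at 85.2%, with hairpins of 61 and 120 bases, and had 1895 and 27.6 CPM. Mir543 and Mir495, at 84.1% identity, had 746.0 and 153.3 CPM. The next pairs were Mir494 with Mir154 (81.8%), at 801.3 and 1588 CPM, Mir1197 with Mir496a (81.0%), at 27.6 and 197.1 CPM, and Mir299a with Mir1193 (81.0%), at 1545 and 2051 CPM. The hairpins of Mir1197 and Mir1193, of 120 and 121 bases, are the longest, which bears on their pairs. Levels within the pairs named ranged from near each other to far apart.

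The summed level of the cluster was 66469 CPM in the pool of 69 embryos and 68332 CPM in the pool of 51, which is 6.74% ± 0.132 of the gene total. A Clopper-Pearson 95% interval, which treats all of the cluster's counts as part of the total, was 6.62% to 6.68% in replicate 1 and 6.81% to 6.86% in replicate 2. These intervals do not overlap, but PCR copies of 1 molecule count as separate reads, so the intervals show nothing beyond counting error. The log2 ratio of the sums was 0.04. The total holds reads on the strand of each gene. It leaves out the reads of Mir409, Mir376a, Mir380 and Mir299a, which the tables list on the strand opposite to the annotated rows. The percentage is therefore a ratio to the total and not a part of it, and the intervals are approximate. Counted on either strand for members and total, the cluster had 6.58%.

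Members were spread over the profile of the tissue and did not lead it. Of the 35 members with a row, 94.3% were detected, against 19.3% of all genes. Here 4 members were counted on the opposite strand, while genes that are not members were counted on their own strand alone. With the gene-strand count for all members, 29 members were detected. The median of the detected members was 801.3 CPM, against 167.6 CPM over all 380 detected genes. Only 1 member, Mir487b, was among the 20 highest genes, 4 were among the 50 highest, 15 among the 100 highest and 29 among the 200 highest.

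The members differed among themselves by 353-fold, from 9738 CPM for Mir487b to 27.6 CPM for Mir1197 among those detected. The 3 highest held 42.1% ± 0.772 of the cluster's counts, the 5 highest 58.7% ± 0.430 and the 10 highest 79.5% ± 0.177. It took 15 members to reach 90%. By level, 15 members had at least 1000 CPM, 15 lay between 100 and 1000 CPM and 5 were below 100 CPM. The order was nearly the same in both libraries: 20 members had the same rank, and no detected member moved by more than 3 places. Over the 33 detected members log2 CPM in the libraries correlated with Pearson r 0.996 and Spearman rho 0.994, points that share library, locus and a wide range of levels.

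**Figure D1:**
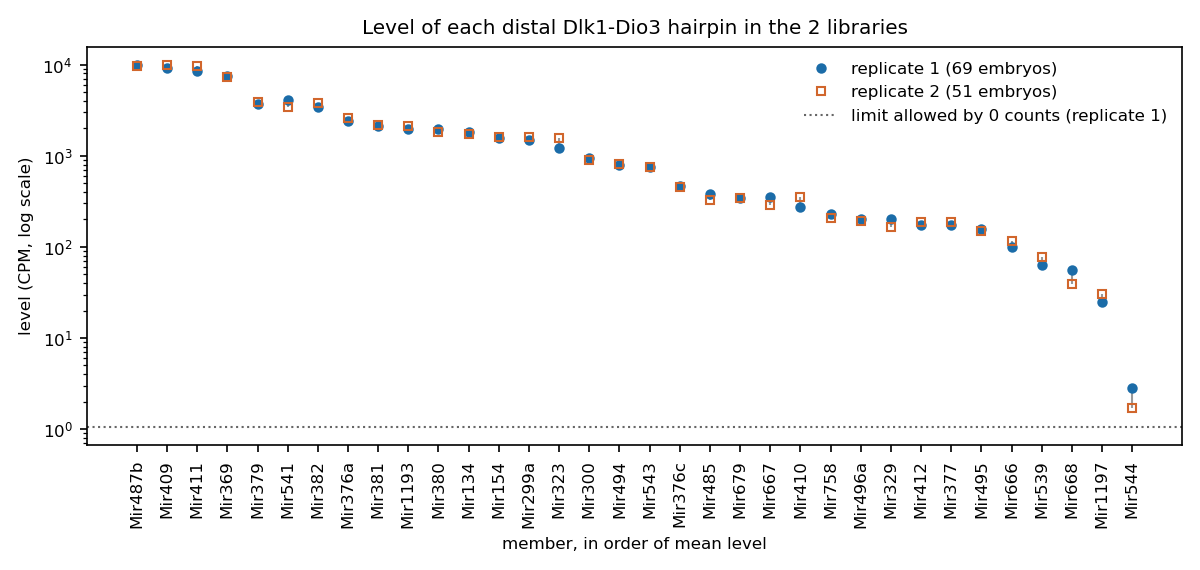
Level of each member with counts in replicate 1 (filled circles, 69 embryos) and replicate 2 (open squares, 51 embryos), in CPM on a log axis, in order of mean level. The dotted line is the level that 0 counts allow in replicate 1 (1.05 CPM), and the points of the libraries lie close together from Mir487b down to Mir1197.

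Mir487b had 9868 CPM in replicate 1 and 9609 in replicate 2 (ENSMUSG00000076219.1, 109727333 to 109727414, outside Mirg). Mir409, read from the opposite strand of the row for Gm24321 (ENSMUSG00000093089.1, 109743158 to 109743237), had 9122 and 9881 CPM and lies in an intron of Mirg. Mir411 (ENSMUSG00000065477.2) had 8617 and 9636 CPM. Mir409 was above Mir411 in each library, while Mir487b was the highest of the 3 in replicate 1 and the lowest in replicate 2. The ranges of neighbours in this order overlap, so none of the 3 stood apart beyond the difference between the libraries.

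Mir369, a miRNA used in a published cocktail for reprogramming cells to pluripotency, had 7523 and 7306 CPM, below all values of the 3 above it. Mir379 had 3684 and 3886 CPM, Mir541 4040 and 3392 CPM, and Mir382 3390 and 3764 CPM. The order of Mir379, Mir541 and Mir382 differed between the libraries, while all 3 lay below Mir369 and above Mir376a.

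Mir376a, whose transcripts are known substrates of A-to-I RNA editing in brain, was read from the opposite strand of the row for Gm25252 and had 2416 and 2621 CPM. Mir381 had 2116 and 2182 CPM and Mir1193 had 1977 and 2125 CPM, and their ranges overlap. Mir380, read opposite to Gm25750, had 1953 and 1837 CPM. Mir134, known in neurons as a regulator of dendritic spine size through Limk1, had 1821 and 1729 CPM, below Mir380 in each library. Among the 12 highest members 5 of 11 neighbouring pairs overlapped in range, and among all members 13 of 34.

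Below these 12, Mir154, Mir299a and Mir323 still passed 1000 CPM. Mir299a, read opposite to Mir299b, had 1503 and 1587 CPM. The members from Mir300 (925.5 CPM) to Mir666 (108.3 CPM) made up the middle of the cluster. Among them Mir329 and Mir485, both studied for roles at neuronal synapses, had 183.6 ± 23.3 and 356.6 ± 40.3 CPM. Mir539, Mir668 and Mir1197 were lower, with 70.7, 47.4 and 27.6 CPM. Mir544 fell short of detection with 8 and 6 counts (2.80 and 1.71 CPM). Mir654 had 0 counts in both libraries, so that its level may be as high as 1.05 CPM in replicate 1 and 0.853 CPM in the other library.

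The Mirg transcript, whose name stands for miRNA-containing gene, is annotated from 109729764 to 109749460. The 12 members from its start onward held 42.8% ± 0.573 of the cluster, and the 23 before it the rest. The median of detected members was 972.5 CPM (47.4 to 9502) from Mirg onward and 801.3 CPM (27.6 to 9738) before it, ranges that overlap almost fully. Within Mirg, 5 members in exons held 9.01% of the cluster, 4 in introns 22.3%, and 3 that are exonic or intronic depending on the transcript 11.5%.

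By distance from the start of Mir379, 14 members in the first 10 kb held 33.2% of the cluster and 8 in the next 10 kb held 24.0%. The 6 members from 20 to 30 kb held 10.9%, and the 7 beyond 30 kb held 31.9%. High members thus stood at both ends and in the middle, often next to low ones: Mir412 (182.4 CPM) lies between Mir409 and Mir369. Over 33 detected members the log2 level had a Pearson r of 0.06 and a Spearman rho of -0.01 with position. Over 32 with a hairpin sequence r was -0.03 with GC content, -0.14 with hairpin length and -0.04 with folding energy per base.

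**Figure D2:**
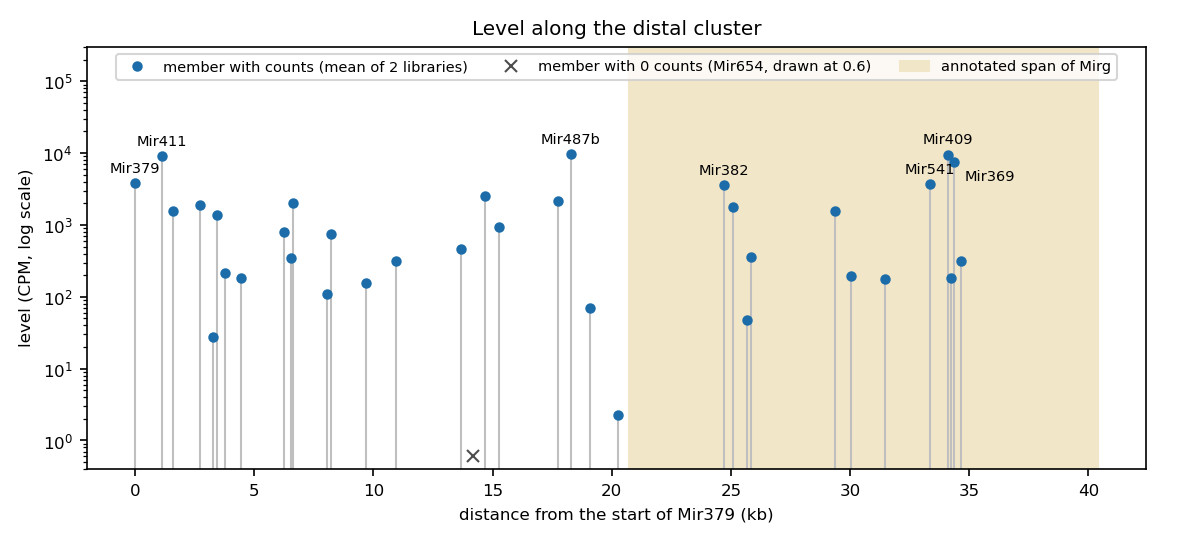
Mean level of each member over the 2 libraries (CPM, log axis) against the distance of its start from that of Mir379 in kb. The shaded band is the annotated span of Mirg, the cross marks Mir654 (0 counts, drawn at 0.6), and the named members, the 7 highest, lie at the start, near 18 kb and inside the band.

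The pools were compared gene by gene, to see which members differed by more than counting error. Of 34 members tested, 18 differed between the libraries (52.9%), by a two-sided exact binomial test with Benjamini-Hochberg adjustment over all 452 genes tested and a threshold of 0.05. Over all tested genes 185 differed, a background of 40.9%. In replicate 2, 9 members were higher (26.5%, against 20.6% of all tested genes) and 9 were lower (26.5%, against 20.4%). The members' shares were somewhat above those of all genes and are not matched for depth. High counts let small differences pass, and detected members had a median of 801.3 CPM, against 167.6 CPM over all detected genes. The test measures counting error and takes no account of the spread between pools. It compares these libraries and not conditions.

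The differences were small. No member was both called and at least 1.5-fold apart, against 42 of all tested genes (9.29%). A negative binomial exact test in edgeR, with 1 dispersion estimated from these same libraries, called 0 members and 1 of the 452 genes (0.221%). At an unadjusted p under 0.05 it called 0 members and 21 genes. In that test the difference between the libraries is also its own error, so its few calls say nothing of whether the members differ between pools.

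Among members that were higher in replicate 2, Mir323 went from 1209 to 1555 CPM, a log2 ratio of 0.36 (exact binomial test, adjusted p 1.77e-30). Mir410, the last member of the cluster, went from 273.3 to 354.0 CPM, a log2 ratio of 0.37 (exact binomial test, adjusted p 5.24e-08). The other 7 were Mir409, Mir411, Mir379, Mir382, Mir376a, Mir1193 and Mir299a. Their log2 ratios ran from 0.08 for Mir379 and Mir299a to 0.16 for Mir411, which passed with an adjusted p of 8.83e-40 in the exact test on its large count.

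Among members that were lower in replicate 2, Mir668 had the greatest fold, from 56.1 to 38.7 CPM, a log2 ratio of -0.53 with a 95% counting interval of -0.88 to -0.20 (exact binomial test, adjusted p 0.00474). Mir541 had a log2 ratio of -0.25 (exact binomial test, adjusted p 1.02e-39), Mir667 of -0.29, Mir329 of -0.26 and Mir485 of -0.23. Mir487b and Mir369, at -0.04, and Mir380, at -0.09, passed the test with differences of 1.06-fold or less. Mir134 had a log2 ratio of -0.07. Mir381, Mir154, Mir300, Mir494, Mir543 and Mir376c did not pass, nor did 10 others, which had at most the level of Mir679 (346.2 CPM).

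**Figure D3:**
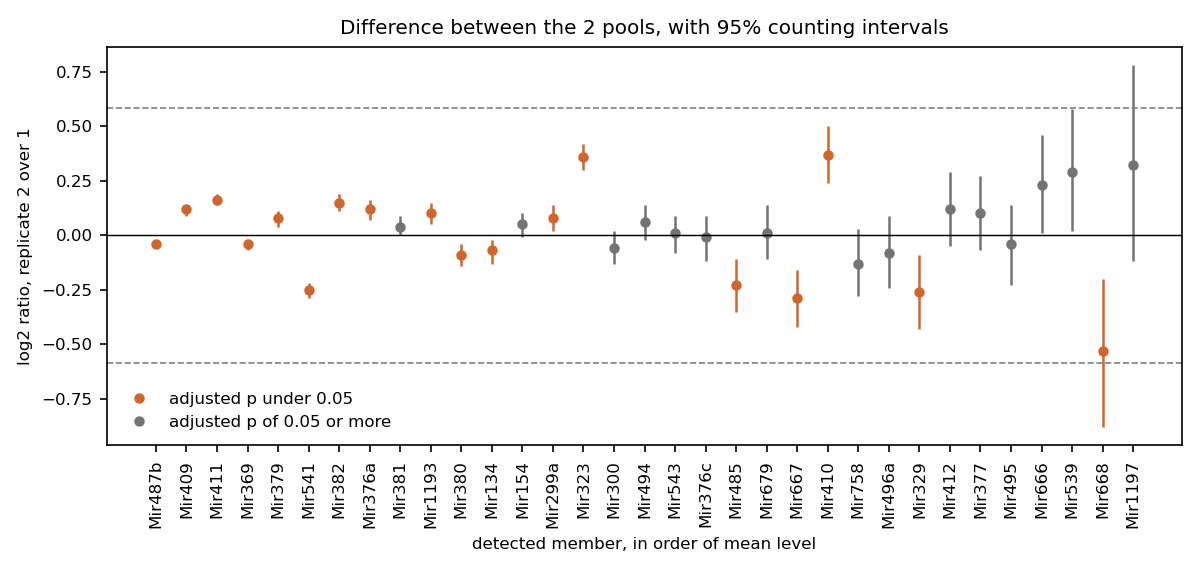
Log2 ratio of CPM in replicate 2 over replicate 1 for the 33 detected members in order of mean level, with 95% counting intervals as bars. Orange points passed the exact binomial test (adjusted p under 0.05), grey points did not, and all points lie between the dashed lines at 1.5-fold.

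The spread of these ratios was set beside that of other genes. The 33 detected members had log2 ratios from -0.53 to 0.37 with a median of 0.04 and an SD of 0.20, and 19 were above 0 and 14 below. All detected genes had a median of 0.01, and the 324 genes with at least 10 CPM had an SD of 0.39. The 33 detected members were all within 1.5-fold between the pools, against 337 of 380 detected genes (88.7%). The 241 other detected genes at or above the level of Mir1197 had an SD of 0.39, and 89.6% of them were within 1.5-fold, with a lower median level than the members (409.4 CPM). Members share 1 locus and are not independent of each other, and the difference in spread was not tested.

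**Figure D4:**
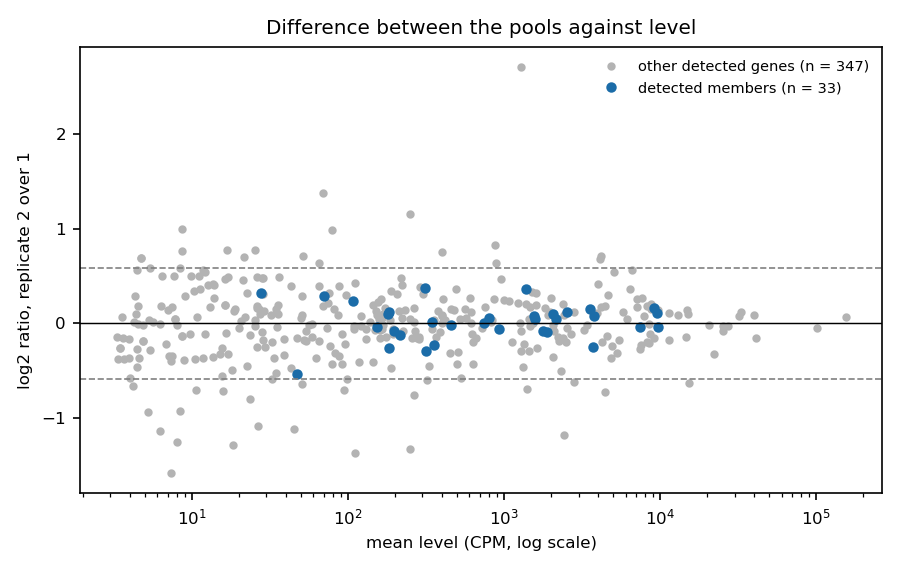
Log2 ratio of replicate 2 over replicate 1 against mean level (CPM, log axis) for the 33 detected members (blue) and the 347 other detected genes (grey), with dashed lines at 1.5-fold. The members lie inside the dashed lines, and 304 of the other genes do so.

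The proximal miRNAs of the same domain, around Rtl1, are on the same maternally expressed side. Of 17 with a row 15 were detected, and their sums were 23783 and 25601 CPM. The distal cluster was therefore 2.73 ± 0.0888 times as high in sum, with 2.80 in replicate 1 and 2.67 in replicate 2. As a ratio to the gene total, which leaves out the opposite-strand reads of 4 distal members, both groups together came to 9.21%. The medians of detected members were close, 838.7 CPM proximal (7.03 to 8727) and 801.3 CPM distal. The proximal sum was led by Mir431 (8727 ± 890 CPM), Mir127, which lies antisense to Rtl1 and targets it (6122 ± 148 CPM), and Mir337 (2073 ± 17.1 CPM). Those 3 held 68.5% of the proximal sum, against 42.1% held by the 3 highest distal members. Of 15 proximal miRNAs tested 6 were higher and 1 was lower in replicate 2, where 20.6% and 20.4% of all tested genes were, and the median log2 ratio was 0.14. At 1 proximal row the later annotation places Mir3071 on the strand opposite to Mir136, so its gene is uncertain.

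Marker miRNAs of the tissue were measured in the same libraries. The mesenchymal list (Mir199a, Mir214, Mir143, Mir145) summed to 24651 and 21977 CPM with 5 of 5 detected, and the epithelial list (Mir200 family, Mir203, Mir205) to 28691 and 23965 CPM with 7 of 7 detected. Mir214 and Mir143 made up most of the mesenchymal sum, with means of 14538 and 8449 CPM, and Mir199a-2 followed at 184.1 CPM. Neural markers (Mir9, Mir124, Mir137, Mir128) summed to 800.4 and 713.3 CPM with 4 of 8 detected. Mir137 made up most of that sum (680.2 and 592.5 CPM), and of 6 neural genes tested 2 were called higher in replicate 2, with at most 16 counts each, and 2 lower. Mir126a of endothelium had 31642 and 34369 CPM. Erythroid markers went from 419.8 to 205.0 CPM, leukocyte markers from 428.6 to 419.1 CPM and muscle markers from 72.5 to 122.8 CPM, with 2 of 6 muscle markers at 0. Of 7 epithelial genes tested 6 were called lower in replicate 2 and 0 higher, with a median log2 ratio of -0.27. Of 5 mesenchymal genes 2 were called lower and 0 higher, with a median of -0.17. Of all tested genes 20.4% were lower and 20.6% higher. The genes of the erythroid and muscle lists did not move together. The erythroid genes Mir451a, Mir144 and Mir486 had log2 ratios of -1.32, -0.16 and 0.32. The muscle genes Mir208b, Mir208a and Mir206 had 1.38, 0.51 and -1.28. Reads that map to several places are not in these counts. For numbered copies of the same miRNA, such as those of Mir9 and Mir124a, a low or 0 count therefore does not show low expression. In pooled tissue fewer cells of a type and less RNA per cell cannot be told apart. The part of these lists in the pool differences of the members was not tested.

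The tables list 27.6% and 25.9% of reads as mapped to several places, outside the gene counts. Mir411, Mir758, Mir376c and Mir487b each share an identical stretch of 20 bases with another annotated hairpin, Mir411 with Mir758 and the others with Mir376b, so part of their reads may be missing. Among all detected genes 22.6% share such a stretch.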

How the data were processed

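MicroRNA libraries from 2 pools of embryonic facial prominences were analysed. The authors deposited raw counts per miRNA gene, on mm10 with GENCODE M4 per the text files deposited with the tables; the aligner is not given in the sources used here. Each table holds 4 summary lines and, per gene, a count on either strand, on the gene's strand and on the opposite strand. The layout was checked against the totals. The libraries held 6828248 and 8643947 reads, and gene-strand counts made up 41.8% and 40.7% of them. Reads mapping to several places are missing from the counts, as are unmapped reads (21.6% and 24.1%) and reads outside genes (9.01% and 9.32%).

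The gene-strand count was used, except at Gm24321, Gm25252, Gm25750 and Mir299b, where the opposite strand holds the reads of Mir409, Mir376a, Mir380 and Mir299a. CPM was computed over the gene-strand total. Symbols and positions came from GENCODE M21, a later release than M4 on the same build, by identifier (1894 of 1973 matched), and sequences from RefSeq. To both CPM values 0.5 was added before taking the log2 ratio of replicate 2 to replicate 1. Genes whose counts in both libraries sum to 10 or more entered an exact binomial test (scipy 1.17.1). edgeR's quasi-likelihood test could not be fitted, since 1 group of 2 libraries leaves no contrast. The edgeR 4.0.16 negative binomial test, DESeq2 1.42.0 size factors and TMM were alternatives. Folding energies came from ViennaRNA 2.7.2. Identity between hairpins came from global pairwise alignment with gaps, over the length of the shorter hairpin. The exact binomial test alone was tried on simulated counts, which had no spread between pools beyond counting error. It called 60.7% of the tested genes changed 2-fold, 60.3% of those changed 1.5-fold and 0.587% of those unchanged. The labels call the libraries biological replicates but list the same donor identifier, and p-values here measure counting error between these libraries.

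The members and lists were chosen with earlier results of these data known. The members described by name in full are the 12 highest by mean CPM, the 4 read from the opposite strand, any that passed and differed at least 1.5-fold (none did) and those under 10 counts in a library. From other lists the 3 highest are named. Mir323, Mir410, Mir668 and the members given by range or as sequence pairs were picked after their values were seen.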

Additional observations from a re-analysis of the deposited data

Results flagged for a closer look

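Reads appeared on strands and hairpins that the comparisons above do not use. At the locus of Mir299a and Mir299b, the strand not used for the level held 8 reads in replicate 1 and 7 in replicate 2, more than the 3 counts that a count of 0 allows. They stand beside 4290 and 5583 reads on the strand that was used. Over all members only 16 reads lay on the unused strand, and the sixteenth was at Mir667. Mir3072, a hairpin at the far end of the interval that is not among the members, had 86.91 CPM in replicate 1 and 107.5 CPM in replicate 2 (248 and 378 counts). The other hairpins of the interval that are no members, Mir453 and Gm27379, had 0 counts in both libraries and 0 and 1 count.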

How the results depend on the processing

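The cluster's share of counts, 6.74%, was 6.58% with counts on either strand, 5.19% with the gene-strand count for all members, 4.79% without members similar to another hairpin, 2.78% of all reads and 7.97% of a total without the highest gene. With 1 library left out it ran from 6.65% to 6.83%, and with the other hairpins of the interval, an alternative chosen after seeing the data, it was 6.75%. The ratio of distal to proximal sums, 2.73, fell to 2.11 with the gene-strand count and to 1.94 without similar hairpins, and ran from 2.67 to 2.80 with 1 library left out. The share held by the 5 highest members, 58.7%, was 59.6% per hairpin length and 65.0% with the gene-strand count, and ran from 58.4% to 59.0% with 1 library left out. These shifts follow from which reads each alternative counts. Leaving out similar hairpins removes Mir487b and Mir411, which rank 1 and 3 in the cluster, with Mir758 and Mir376c.

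Of the 18 members that differed between the pools, 9 higher and 9 lower, 0 were at least 1.5-fold apart and 0 passed the negative binomial test, in either direction. That test takes its dispersion from the 2 libraries it compares, so its 0 bears on no call. The other alternatives gave 14 to 18 calls. Detected members numbered 29 to 34, and the median ratio ran from 0.01 to 0.04. Among 13 named members, 63 of 65 values kept their direction and call. Pseudocounts of 0.1 and 5 CPM do not enter the test, so those settings could not change a call. Few reads lay on the unused strand of these members, so counts on either strand could change little. The calls were put to a test mainly by TMM and DESeq2 size factors. Mir299a lost its call with TMM and with DESeq2 size factors, at log2 ratios of 0.05 and 0.07. No value reversed. Leaving out a library leaves no comparison between pools. No paired analysis was possible because the series holds 1 group. A difference under about 1.05-fold could be called only for the most deeply counted members, so depth limits which members pass.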
